A study of Mus musculus with 2 samples.

Results

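The genes followed were 10 that move or hold calcium in muscle: the 3 calcium pumps of the sarcoplasmic reticulum (Atp2a1, Atp2a2 and Atp2a3), the 2 small membrane peptides that restrain them (Sln and Pln), 4 proteins inside the reticulum (Casq1, Casq2, Hrc and Srl) and the calcium buffer of the cytosol (Pvalb). They were taken by name, and all 10 were found among 55536 annotated genes. Total RNA came from the gastrocnemius, a calf muscle, of female B6CASTF1/J mice aged 14 days, with no treatment named in the labels. B6CASTF1/J mice are first-generation hybrids of C57BL/6J and CAST/EiJ, so each animal carries an allele from both strains. The series held 1 group of 2 libraries, which the labels call biological replicates 1 and 2, so no condition was compared. The sample text of replicate 1 speaks of 3 females and that of replicate 2 names a single female, while the library text speaks of 3 females for both. Whether a library is 1 animal or a pool is therefore not settled, and the spread between the libraries may be partly technical.

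A muscle fibre contracts when calcium leaves the sarcoplasmic reticulum through the ryanodine receptor, and relaxes when pumps of the SERCA family return it. Inside the reticulum, calsequestrin binds calcium at high capacity near the release channels. In the cytosol of fast fibres, parvalbumin takes up calcium before the pumps have removed it. Fast fibres use the pump of Atp2a1 and the calsequestrin of Casq1, whereas the heart uses Atp2a2 and Casq2, and slow fibres use Atp2a2 and both calsequestrins. Sarcolipin (Sln) and phospholamban (Pln) lower the pumps' activity. The gastrocnemius of a mouse is made mostly of fast fibres.

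Gene counts summed to 35592003 in replicate 1 and 42105856 in replicate 2. Markers of skeletal muscle and of fast fibres were abundant, with Acta1, skeletal actin, at 29222 ± 1530 TPM (SD, n = 2) and Myh4, the fastest adult myosin, at 11885 ± 450.5 TPM. TPM is a measure of abundance that divides reads by transcript length and sets each library to 1 common sum. Of 5 heart markers, Nppa, Nppb and Myl7 had 0 counts in both libraries, which allows up to 3 counts each. The other 2 were present, Myh6 at 63.25 and 103.66 TPM and Myl4 at 5.43 and 7.66 TPM. Counting intervals and limits given here cover counting error only. All values are of a whole muscle, in which fewer cells of a type and less RNA per cell cannot be told apart.

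The 10 genes spanned 4 orders of magnitude in level, and they fell in the same order in both libraries. Together they made up 2.21% of the TPM of all genes in replicate 1 and 2.33% in replicate 2 (2.27% ± 0.0811, SD, n = 2). Parvalbumin, the fast pump and the fast calsequestrin supplied 94.2% of that sum in replicate 1 and 94.3% in replicate 2. The order by mean TPM was Pvalb, Atp2a1, Casq1, Srl, Hrc, Atp2a2, Casq2, Atp2a3, Sln and Pln. A second quantification, made directly from the reads, gave that order too, at levels 1.11 to 1.78 times those of the gene table. Of the 9 neighbouring pairs, 6 differed, with the same gene higher and deposited intervals apart in both libraries. The other 3 pairs had intervals that overlapped in a library: Pvalb with Atp2a1, Atp2a3 with Sln, and Sln with Pln.

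**Figure D1:**
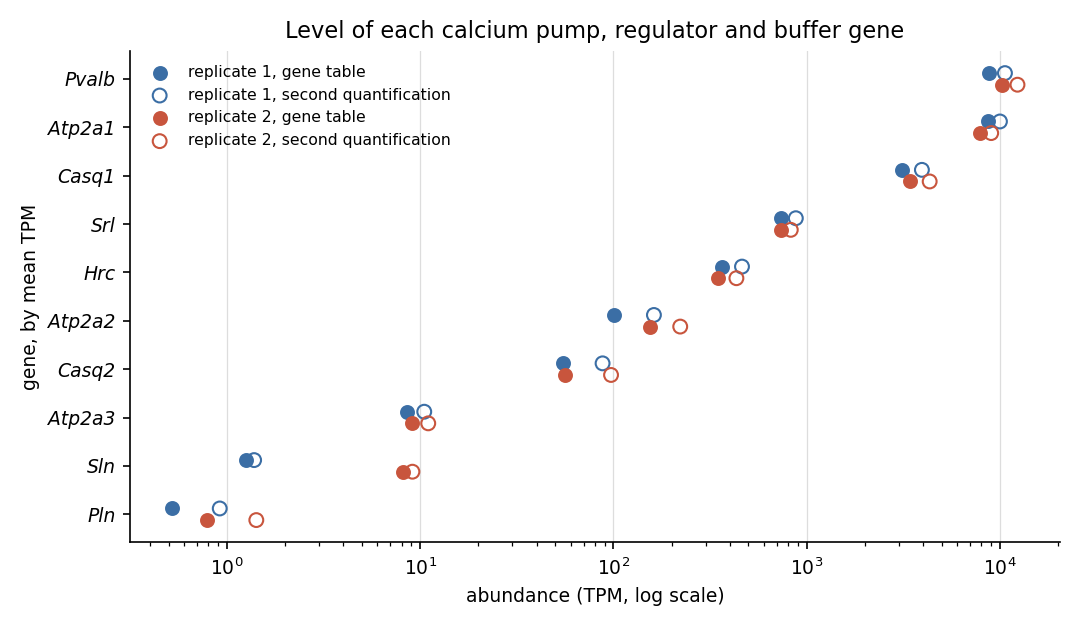
Abundance of each gene in TPM on a log scale, with genes ordered by mean TPM. Filled points are the gene table and open points the second quantification, in blue for replicate 1 and red for replicate 2; the libraries lie farthest apart for Sln, at 1.25 against 8.18 TPM, followed by Atp2a2, at 100.92 against 154.64 TPM, and Pln, at 0.52 against 0.79 TPM.

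The pump RNA of this muscle was almost wholly that of Atp2a1. Atp2a1 (ENSMUSG00000030730.12, mm10 chromosome 7, 126445858 to 126463108, minus strand), which encodes the fast-fibre pump SERCA1, held 800720 counts at 8728 TPM in replicate 1 and 826078 counts at 7938 TPM in replicate 2. Its mean of 8333 ± 559 TPM ranked 9 among 22015 nuclear protein-coding genes. Atp2a2 (ENSMUSG00000029467.15, chromosome 5, 122453513 to 122502225, minus strand), the pump of heart and slow fibres, stood at 100.92 and 154.64 TPM, on 11391 and 20223 counts. Atp2a3 (ENSMUSG00000020788.15, chromosome 11, 72961169 to 72993044, plus strand), a pump known from platelets, lymphocytes and endothelium, stood at 8.52 and 9.06 TPM, on 1049 and 1237 counts. The pumps kept this order in each library, and their levels did not overlap.

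As a share of the 3 pump genes' TPM, Atp2a1 was 98.8% in replicate 1 and 98.0% in replicate 2 (98.4% ± 0.553, SD, n = 2). Atp2a2 was 1.14% and 1.91%, and Atp2a3 was 0.0964% and 0.112%. Atp2a1 thus exceeded Atp2a2 by 86.5-fold in replicate 1 and 51.3-fold in replicate 2. In the second quantification the ratio was smaller, at 61.8-fold and 40.7-fold. Both terms of that ratio moved, since Atp2a1 was lower and Atp2a2 higher in replicate 2. Atp2a2 exceeded Atp2a3 by 11.8-fold and 17.1-fold. The endothelial markers Pecam1, Cdh5 and Kdr summed to 124 and 128 TPM, whereas those of leukocytes and platelets summed to 8.38 and 14.3 TPM. Their part in the level of Atp2a3 was not tested.

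Both fast and slow pumps are made in 2 forms that differ only at the end of the protein, where the RNA is spliced in alternative ways. In Atp2a1 the adult form, SERCA1a, keeps a small exon that carries the stop codon, and the neonatal form, SERCA1b, skips it and reads on into the last exon. The annotation holds 2 transcripts. Atp2a1-201 has 23 exons and keeps the 42-base exon 22. Atp2a1-202 skips exon 22, and is a 681-base model of 5 exons that is incomplete at its 5′ end. The coding ends are shown because they are what tells the forms apart; lower case marks the last 30 coding bases that a pair shares, and capitals mark the bases of each form alone, stop codon included. They were read from the mm10 reference, a C57BL/6J sequence, at chr7:126446101-126446900 and chr5:122454291-122457332 (minus strand), and the CAST/EiJ allele may differ.
Atp2a1-201, adult: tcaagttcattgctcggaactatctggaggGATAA
Atp2a1-202, neonatal: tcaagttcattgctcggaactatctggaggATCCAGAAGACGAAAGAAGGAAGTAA
Atp2a2-202, muscle: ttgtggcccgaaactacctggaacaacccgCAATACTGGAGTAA
Atp2a2-201, general: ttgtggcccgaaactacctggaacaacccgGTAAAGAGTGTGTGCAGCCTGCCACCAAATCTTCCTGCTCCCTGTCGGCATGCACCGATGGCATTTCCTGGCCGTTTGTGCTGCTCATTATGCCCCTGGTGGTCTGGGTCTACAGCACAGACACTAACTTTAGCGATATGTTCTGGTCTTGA
The adult end of Atp2a1 adds 5 bases and closes a coding sequence of 994 codons. The neonatal end adds 26 bases, which makes it 7 codons longer. In Atp2a2 the muscle form, SERCA2a, ends after 14 bases of its own at 998 codons. The form made in most tissues, SERCA2b, has 152 bases of its own and is 46 codons longer.

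At this age the adult form was the main Atp2a1 transcript. By the deposited isoform percent, the share of a gene's abundance assigned to a transcript, Atp2a1-201 held 95.82% in replicate 1 and 93.67% in replicate 2. The neonatal Atp2a1-202 held 4.18% and 6.33% (5.26% ± 1.52, SD, n = 2). In TPM the neonatal form stood at 364.84 and 502.76, on 5973 and 9513 counts, and was higher in replicate 2 while the adult form was lower, at 8363 and 7435 TPM. The adult form was thus the larger by far in either library. Per length on its short model, the neonatal form alone lay above the TPM of Atp2a2 in both. In counts it lay below Atp2a2, which had 11391 and 20223, and was 0.746% and 1.15% of the counts of Atp2a1. The second quantification gave the neonatal form 2.43% and 4.68% of the gene's TPM, below the deposited isoform percent in each library and again higher in replicate 2. Every base of the Atp2a1-202 model also lies in Atp2a1-201, with 0 bases outside it, so only reads across the junction that skips exon 22 belong to it alone. Reads in the shared exons are divided between the forms by the quantifier, and the short model makes the share sensitive to how that is done.

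**Figure D2:**
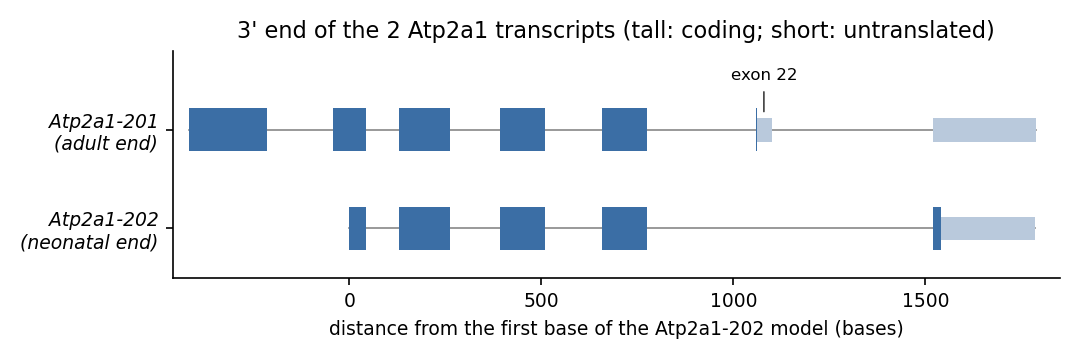
The 3′ end of the 2 annotated Atp2a1 transcripts, drawn to scale in bases from the first base of the Atp2a1-202 model, in the direction of transcription. Tall boxes are coding and short boxes untranslated; the 42-base exon 22, present only in Atp2a1-201, holds the adult form's last 5 coding bases, and the neonatal form reads 26 bases into the last exon.

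Atp2a2 was mostly in its muscle form. Atp2a2-202, which codes for SERCA2a, held 70.53% of the gene in replicate 1 and 71.34% in replicate 2 (70.9% ± 0.573, SD, n = 2). Atp2a2-201, which codes for SERCA2b, held 25.92% and 25.76% (25.8% ± 0.113). The split barely moved while the level of the gene differed between the libraries, from 71.18 to 110.32 TPM for Atp2a2-202 and from 26.16 to 39.83 TPM for Atp2a2-201. In the second quantification the muscle form held 77.6% and 77.2%. Atp2a3 was shared by Atp2a3-201, at 57.87% and 60.20%, and Atp2a3-203, at 36.29% and 33.24%; its deposited transcript intervals overlapped in each library, so the order of this pair was not resolved.

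The pump inhibitors were among the least abundant of the 10 genes. Sln (ENSMUSG00000042045.6, chromosome 9, 53850164 to 53854560, plus strand) encodes sarcolipin, which binds SERCA pumps and lets them split ATP without moving calcium. It held 43 counts at 1.25 TPM in replicate 1 and 324 counts at 8.18 TPM in replicate 2. Pln (ENSMUSG00000038583.13, chromosome 10, 53337667 to 53345987, plus strand) encodes phospholamban, the inhibitor best known from the heart. It held 21 counts at 0.52 TPM and 38 counts at 0.79 TPM, and was the only one of the 10 genes under 1 TPM. Sln lay above Pln in both libraries, but in replicate 1 their deposited intervals overlapped.

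Sln made up 70.6% of the pair's TPM in replicate 1 and 91.2% in replicate 2 (80.9% ± 14.5, SD, n = 2). The 3 pump genes outnumbered Sln and Pln together by 4993-fold in replicate 1 and 903-fold in replicate 2. The denominator of that ratio rests on few counts, most of them from Sln. Both inhibitors are encoded by a single uninterrupted stretch, shown here whole with the start and stop codons in capitals since the products are so short: Sln has 31 codons and Pln 52. They are the plus strand of the mm10 reference at chr9:53853473-53853568 and chr10:53343864-53344022.
Sln-201: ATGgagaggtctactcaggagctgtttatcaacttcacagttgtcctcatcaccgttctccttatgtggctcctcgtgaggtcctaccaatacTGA
Pln-201: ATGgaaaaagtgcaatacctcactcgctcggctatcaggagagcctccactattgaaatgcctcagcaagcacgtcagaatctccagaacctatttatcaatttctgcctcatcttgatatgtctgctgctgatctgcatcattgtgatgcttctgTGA
Sln had 1 annotated transcript. Pln was divided among Pln-201, with 51.96% and 52.55%, Pln-204, with 27.65% and 35.50%, and Pln-205, with 20.40% and 10.16%. On 21 and 38 counts that division is not resolved, and the second quantification put Pln-204 first, at 72.1% and 61.7%. Exons of Pln are also overlapped on the opposite strand by Gm47644, over up to 1312 bases and at 2.12 and 1.14 TPM, and by Cep85l, over up to 141 bases and at 23.92 and 13.64 TPM. Whether the counting used strand is not given in the sources used here, so reads of Pln and of these genes may not be told apart.

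Other micropeptides that act on the pumps exceeded Sln and Pln. Mrln, which encodes the muscle inhibitor myoregulin, stood at 40.01 and 47.28 TPM (43.6 ± 5.14, SD, n = 2). Gm34302, which RefSeq names Strit1 and which encodes the activator DWORF, stood at 17.77 and 23.71 TPM, on 72 and 111 counts, but was at 0 in both libraries in the second quantification. The gene for another-regulin, annotated as 1810037I17Rik, stood at 9.72 and 11.19 TPM, and Smim6, endoregulin, had 0 counts in both libraries. Mrln, Gm34302 and 1810037I17Rik together came to 38.1 times the TPM of Sln and Pln in replicate 1 and 9.16 times in replicate 2. In the second quantification, with nothing from Gm34302, the sum came to 30.2 and 8.21 times, a comparison added after seeing the data. Counting all these micropeptides, the pumps were in excess by 128-fold and 88.9-fold, so the 2 libraries lay closer than with Sln and Pln alone.

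Calsequestrin RNA, like pump RNA, was almost all of the fast-fibre gene. Casq1 (ENSMUSG00000007122.11, chromosome 1, 172209894 to 172219868, minus strand), the main calcium-binding protein inside the reticulum of skeletal muscle, stood at 3099 TPM on 140765 counts in replicate 1 and 3422 TPM on 180668 counts in replicate 2. Casq2 (ENSMUSG00000027861.13, chromosome 3, 102086415 to 102146514, plus strand), the calsequestrin of heart and slow fibres, stood at 55.09 and 56.36 TPM, on 3808 and 4461 counts. Casq1 made up 98.3% of the pair's TPM in replicate 1 and 98.4% in replicate 2 (98.3% ± 0.0894, SD, n = 2), and exceeded Casq2 by 56.3-fold and 60.7-fold. Unlike the slow-fibre pump Atp2a2, the slow-fibre calsequestrin differed little in TPM between the libraries.

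Of the other reticulum proteins, Srl (ENSMUSG00000022519.14, chromosome 16, 4480216 to 4541816, minus strand) encodes sarcalumenin, a calcium-binding glycoprotein that associates with the pumps. It stood at 733 TPM in replicate 1 and 737 TPM in replicate 2, on 73515 and 82668 counts. Hrc (ENSMUSG00000038239.11, chromosome 7, 45335290 to 45338974, plus strand) encodes a histidine-rich calcium-binding protein that links pump and release complex. It stood at 364 and 346 TPM, on 23384 and 25580 counts. Per library, Casq1 exceeded Srl by 4.23-fold and 4.64-fold, and Srl exceeded Hrc by 2.01-fold and 2.13-fold. The fast pump in turn exceeded its luminal buffer, with Atp2a1 over Casq1 at 2.82-fold and 2.32-fold. None of these neighbours overlapped in either library.

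Transcripts within these genes differed in how firmly they could be assigned. Casq1-201, the full coding transcript, held 84.45% and 85.52% of Casq1, and Casq1-202, a retained-intron model, held 15.49% and 14.43%. In the second quantification Casq1-202 held only 6.20% and 6.13%. Srl was divided between its 2 coding transcripts, of which Srl-201 is 438 codons longer. Srl-202, the shorter, held 51.06% and 53.50%, and Srl-201 held 34.48% and 30.28%. A further 14.23% and 16.21% went to Srl-203, a retained-intron model of 349 bases, to which the second quantification gave 4 counts in each library. The second quantification instead gave 12.3% and 9.53% to Srl-205, a processed transcript with 0 counts in the gene-table quantification. Those shares are thus not settled, while Srl-202 stayed above Srl-201 in both quantifications. Hrc-201 held 98.34% and 97.72% of Hrc, and Casq2-201 held 100% and 98.88% of Casq2. For Casq2 the second quantification assigned only 76.0% and 67.8% to Casq2-201, and the rest mostly to the short models Casq2-202 and Casq2-203.

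Pvalb was the most abundant of the 10 genes. Pvalb (ENSMUSG00000005716.16, chromosome 15, 78191114 to 78206400, minus strand) encodes parvalbumin, the soluble calcium buffer of fast fibres. It held 210293 counts at 8752 TPM in replicate 1 and 286348 counts at 10312 TPM in replicate 2 (9532 ± 1103, SD, n = 2), and ranked 8 among nuclear protein-coding genes. Per length it equalled Atp2a1 in replicate 1, at a ratio of 1.00, and exceeded it in replicate 2, at 1.30. It exceeded Casq1 by 2.82-fold and 3.01-fold. Tnnc2, the fast troponin C that triggers contraction, stood below it, at 6782 and 7671 TPM.

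The gene's level was clear but its start site was not. Pvalb-201 and Pvalb-202 have equal coding sequences and differ mainly in their first exons, with starts 2163 bases apart. Their 3′ ends also differ slightly, at 78191114 and 78191117. The gene-table quantification assigned 99.35% and 99.47% to Pvalb-202. The second quantification assigned 99.99% and 99.1% to Pvalb-201, with 170459 and 226974 counts against 20.9 and 2091 for Pvalb-202. The choice is opposite in both libraries, and it rests on the 88 bases found only in Pvalb-201 and the 64 found only in Pvalb-202, against 889 shared bases. A few of the bases found only in Pvalb-201 lie at its 3′ end and not at its start. The windows at both starts, from 250 bases before to 50 after, are shown because each start has its own promoter. They are RefSeq windows of GRCm38.p6, minus strand, at chr15:78204188-78204487 for Pvalb-201 and chr15:78206351-78206650 for Pvalb-202, with E-boxes (CANNTG) in capitals.
Pvalb-201 start: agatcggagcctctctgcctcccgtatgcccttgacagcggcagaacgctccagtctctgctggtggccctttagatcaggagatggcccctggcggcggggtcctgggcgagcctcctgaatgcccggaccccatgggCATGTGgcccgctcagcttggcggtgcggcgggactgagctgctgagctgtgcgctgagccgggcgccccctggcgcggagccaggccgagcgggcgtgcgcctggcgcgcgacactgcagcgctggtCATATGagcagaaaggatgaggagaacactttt
Pvalb-202 start: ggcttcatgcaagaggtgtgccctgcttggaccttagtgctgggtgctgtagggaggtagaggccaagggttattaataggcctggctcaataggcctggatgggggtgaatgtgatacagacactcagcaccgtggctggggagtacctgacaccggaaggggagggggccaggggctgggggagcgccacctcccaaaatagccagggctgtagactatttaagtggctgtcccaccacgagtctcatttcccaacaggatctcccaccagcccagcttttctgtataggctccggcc
The window of Pvalb-201 held 2 E-boxes, the short sequence that bHLH factors of muscle bind, and 67.7% of its bases were G or C. That of Pvalb-202 held 0 E-boxes and was 58.3% G or C, against a median of 52.7% over all windows. An E-box was present in 72.3% of all 32851 promoter windows of this length and in 6 of the 8 windows matched for 7 of the 10 genes. Its letters read the same on both strands. A match is a description of the letters and says nothing of which start is used.

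**Figure D3:**
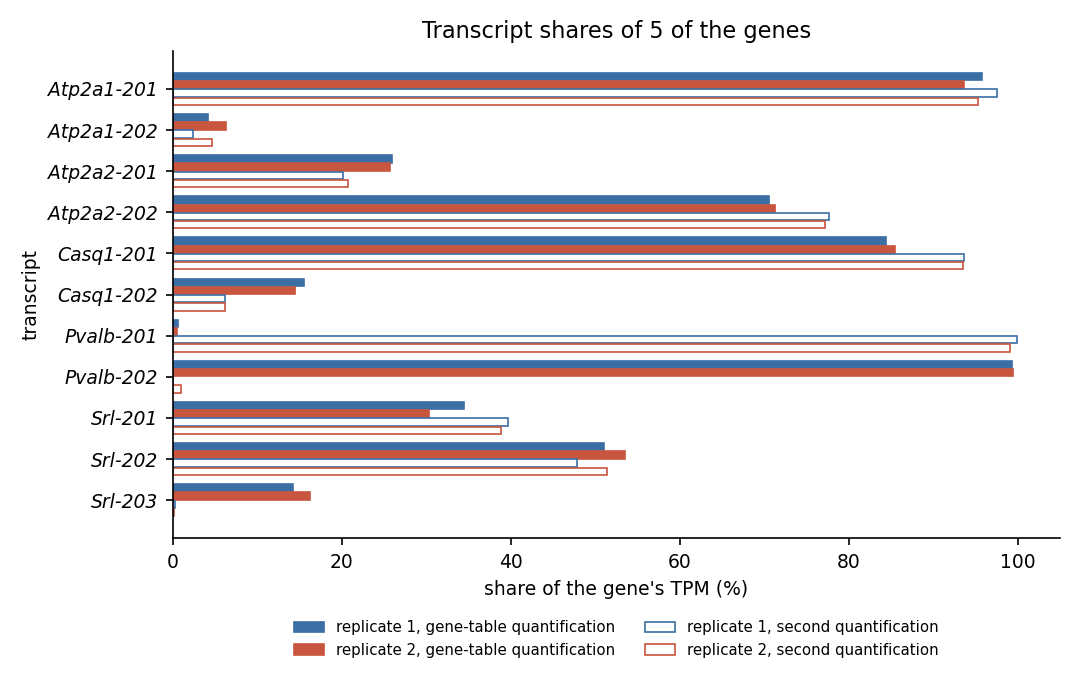
Share of the gene's TPM, in percent, held by transcripts of 5 of the genes in each library and quantification. Filled bars are the gene-table quantification and open bars the second one, in blue for replicate 1 and red for replicate 2; the forms of Atp2a1 and Atp2a2 keep their order throughout, whereas Pvalb passes from Pvalb-202 at 99.35% and 99.47% to Pvalb-201, and Srl-203 from 14.23% and 16.21% to almost none.

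Over all 10 genes, the leading transcript was the same in both libraries for 10 and the same in both quantifications for 8, the exceptions being Pln and Pvalb. Of 38 annotated transcripts, 30 had a count in at least 1 library.

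Between the libraries, 1 gene of the 10 stood out. Counts were scaled by TMM, which sets aside genes of extreme level or ratio, and the ratio of replicate 2 over replicate 1 was taken for genes with 20 or more counts over both libraries. Of the 10 genes, 1 (Sln) was at least 1.5-fold apart, against 13.5% of 15734 genes tested. By that fold, 7.85% of all genes were higher in replicate 2 and 5.65% were lower. All 10 genes passed the count minimum. A share of 1 in 10 lies near the background. With 1 library on each side no test was possible, and the intervals are 95% Clopper-Pearson intervals for counting error.

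Sln was 5.77-fold higher in replicate 2 (95% interval 4.23 to 8.21, log2 ratio 2.53). Of all genes tested, 4.66% were at least 2-fold apart and 0.362%, or 57 genes, were at least as far apart as Sln, in either direction. Atp2a2 was 1.37-fold higher (1.34 to 1.41), and Pln 1.39-fold higher with an interval of 0.801 to 2.51 that holds no difference. In the second quantification Atp2a2 was 1.24-fold higher, outside that counting interval, so its fold depends on the quantification. Atp2a1 was lower in replicate 2, at 0.798-fold (0.796 to 0.801), as was Hrc, at 0.846-fold. Pvalb was slightly higher, at 1.05-fold.

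The direction held under TMM, DESeq2 size factors, library totals, spike-in totals and TPM for those 6 genes: Sln, Atp2a2, Pln and Pvalb were higher in replicate 2, and Atp2a1 and Hrc lower. With spike-in totals Hrc was lower only by a little, at 0.986-fold. For Casq1, Casq2, Srl and Atp2a3 the direction depended on the scaling, with ratios of 0.993, 0.906, 0.870 and 0.912 under TMM but slightly higher TPM in replicate 2. The median log2 ratio was -0.07 over the 10 genes and 0.01 over all genes tested. Library totals moved the median of all genes to 0.14 and spike-in totals to 0.23 on the log2 scale. Under them Atp2a2 and Pln also passed 1.5-fold, at 1.501 and 1.51 with library totals and at 1.60 and 1.61 with spike-ins. The share of all genes past that fold was then larger too, at 15.5% with library totals and 18.3% with spike-ins. A scaling shifts every gene alike, so the ratio relative to the median of all genes is fixed by construction, at 1.36 for Atp2a2, 1.38 for Pln and 5.74 for Sln.

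**Figure D4:**
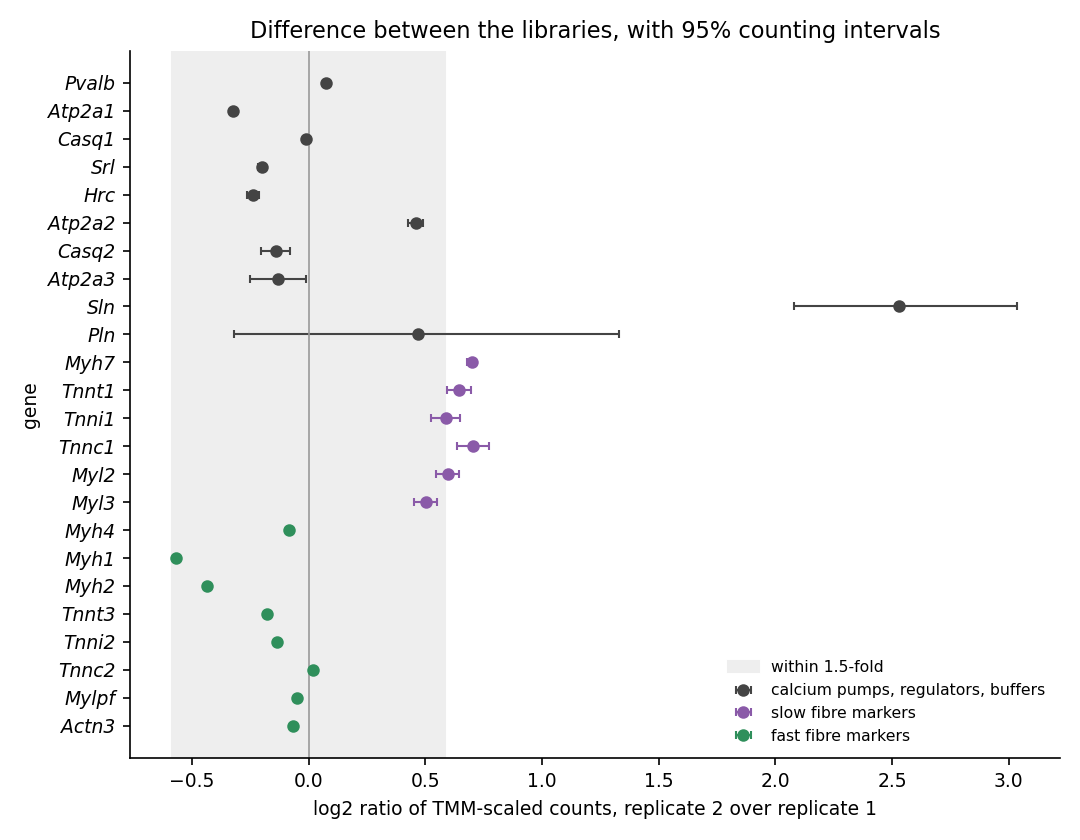
Log2 ratio of TMM-scaled counts, replicate 2 over replicate 1, for the 10 genes (black) and for slow (purple) and fast (green) fibre markers, with 95% counting intervals as bars. The grey band holds ratios within 1.5-fold; Sln lies far to the right at 2.53, Atp2a2 at 0.46 and the 6 slow-fibre markers from 0.50 to 0.70, while 7 of the 8 fast-fibre markers lie below 0 under TMM, although their summed TPM was higher in replicate 2, at 71470 against 68029.

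Markers of slow fibres were also higher in replicate 2, whereas Casq2, the calsequestrin of heart and slow fibres, was at 0.906-fold under TMM. With 2 libraries of 1 group, no likeness of pattern between genes was computed. All 6 slow-fibre markers were higher in replicate 2, against 8083 of 15734 genes tested with a log2 ratio above 0. Of the 6, 5 were at least 1.5-fold higher under TMM, against 7.85% of all genes tested. These were Myh7, slow myosin, at 1.62-fold, the troponins Tnnt1 at 1.56, Tnni1 at 1.502 and Tnnc1 at 1.63, and the light chain Myl2 at 1.51. Tnni1 lay barely past that fold, so its call can change with the scaling. Myl3 was at 1.42-fold. Their summed level went from 1315 to 2267 TPM, or 1.72 times. Of 8 fast-fibre markers 0 were 1.5-fold apart, against 13.5% of all genes tested. Their TMM-scaled ratios ran from 0.674 for Myh1 to 1.01 for Tnnc2, although their summed TPM was higher in replicate 2, at 71470 against 68029. The others were Myh2 at 0.740, Tnnt3 at 0.884, Tnni2 at 0.911, Myh4 at 0.943, Actn3 at 0.955 and Mylpf at 0.966. The ratio of Sln lay above that of every slow-fibre marker, and that of Atp2a2 below them all.

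Some markers of other tissues also differed, and others did not. None of the 3 endothelial markers was 1.5-fold apart, with Pecam1 at 0.869-fold, Cdh5 at 0.870 and Kdr at 1.07. Of 4 leukocyte and platelet markers tested, Ptprc was at 0.993-fold and Pf4 at 1.42. The other 2, Itga2b at 1.60 and Ppbp at 1.51, had counting intervals that hold no difference. Of 4 smooth muscle markers, 3 were at least 1.5-fold higher in replicate 2, against 7.85% of all genes tested: Acta2 at 2.27-fold, Tagln at 1.70 and Cnn1 at 2.68. Myh11 was at 1.10, and the summed level of the 4 went from 147 to 352 TPM. Of the 2 heart markers with counts, Myl4 stood at 5.43 and 7.66 TPM, at 1.27-fold. Myh6, a myosin whose sequence resembles that of Myh7, stood at 63.25 and 103.66 TPM and was past 1.5-fold, at 1.56. Neuron markers summed to 0.19 and 0.94 TPM. Of these, 1 had enough counts to be tested, Gad1, at 3.67-fold on 10.86 and 54 counts (log2 interval 0.97 to 3.01). The part of slow fibres, of smooth muscle or of any other cells in the library difference of Sln and Atp2a2 was not tested.

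The genes that release, sense and return calcium elsewhere in the cell gave the setting of these levels. Of 13 genes of the release channel and its junction, 0 were 1.5-fold apart, against 13.5% of all genes tested. Trdn, the anchor of calsequestrin, stood at 729 ± 30.5 TPM, Ryr1, the release channel, at 388 ± 34.5, and Cacna1s, the voltage sensor, at 270 ± 2.41 (SD, n = 2). Trdn was thus at the level of Srl, and Casq1 lay above all 13. Of 12 genes of calcium extrusion and entry through the surface membrane, 2 were higher in replicate 2 (Atp2b2 and Orai2, both under 1.5 TPM) and 1 was lower (Slc8a2). Over all genes tested, 7.85% were higher and 5.65% lower by that fold. Slc8a2 rests on 24 and 19 counts, and its log2 interval of -1.66 to 0.22 holds no difference. The best expressed were the reticulum sensor Stim1 at 99.8 ± 4.52 TPM, the plasma membrane pump Atp2b1 at 26.2 ± 0.792 and the entry channel Orai1 at 20.7 ± 3.49. Every surface pump and exchanger measured therefore lay under Atp2a2.

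Of 9 genes of mitochondrial uptake 0 were 1.5-fold apart, against 13.5% of all genes tested. They were led by the outer membrane channel Vdac1 at 577 ± 34.0 TPM, the uniporter subunit Smdt1 at 67.9 ± 5.56 and Letm1 at 39.2 ± 0.948. Of 13 cytosolic sensors and buffers beside Pvalb, 9 were tested and 1 was higher, against 7.85% of all genes tested. It was Tnnc1, which also counts as a slow-fibre marker. Tnnc2 led them at 7226 ± 629 TPM, followed by Tnnc1 at 216 ± 89.2. Ocm, which encodes the other mammalian parvalbumin, had 0 counts in both libraries.

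A further list held 12 genes, mostly for chaperones and calcium-binding proteins in the reticulum of most cells. It also held Sdf4 and Fam20c, whose products belong to the Golgi. The list was led by Calr, calreticulin, at 102 ± 14.3 TPM, Hspa5 at 91.6 ± 13.2 and Hsp90b1 at 60.7 ± 10.4. Casq1 exceeded each of the 12, as did Srl and Hrc. None of the 12 was 1.5-fold apart under TMM, against 13.5% of all genes tested. Fam20c came closest, at 1.499-fold, so this count too depends on the scaling. Under TMM all 12 had a log2 ratio above 0, with a median of 0.20. Over all genes tested, 8083 of 15734 had a log2 ratio above 0, with a median of 0.01. Of the Golgi pump genes, Atp2c1 stood at 14.2 ± 0.375 TPM and Atp2c2 at 0.03 ± 0.0424. Tmem165, listed with them but not a pump of their family, stood at 10.1 ± 1.42 TPM.

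**Figure D5:**
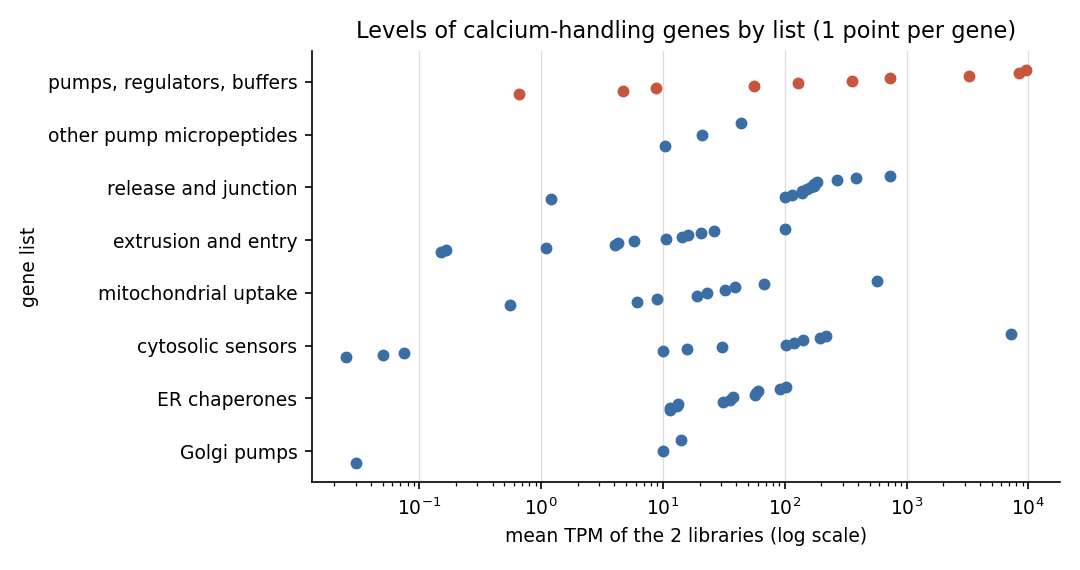
Mean TPM of the 2 libraries, on a log scale, for the 10 genes (red) and for 7 lists of other calcium-handling genes (blue), with 1 point per gene and genes at 0 in both libraries left out. The 3 highest red points, Pvalb, Atp2a1 and Casq1, are matched among the other lists only by Tnnc2, at 7226 TPM.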

How the data were processed

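The deposited gene and transcript tables hold expected counts, TPM, a posterior mean TPM with an interval whose level is not given, and isoform percent, per the file headers. Their values came from alignments to the transcriptome, and the second deposited transcript table, with estimated counts and TPM, came directly from the reads (assembly mm10, annotation GENCODE M21). Aligner, quantifiers and their versions: not given in the sources used here. All 55536 gene IDs matched M21. Libraries used 300 ng of RNA with ERCC spike-ins (285877 and 317175 counts).

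Expected counts were rounded, and edgeR 4.0.16 supplied TMM factors of 0.957 and 1.05. Log2 ratios carry a prior count of 0.5 and exact binomial intervals, and no p-value was computed. The ratio script was tested on simulated data. Software was scipy 1.17.1, numpy 2.4.6, pandas 2.3.3, Python 3.11.15, R 4.3.3 and DESeq2 1.42.0. Alternatives were the second table, posterior means, TPM over nuclear coding genes, counts not divided by length, other scalings, no filter, 2-fold, and each library alone.

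The 10 genes and all gene lists were chosen with earlier results of these data known. Named were all 10 genes, all fibre markers, the 3 most abundant genes of each other list, and transcripts at 5% or more. A gene this rule takes is not reported here. Other genes named were chosen after their values were seen. The reference is C57BL/6J, and whether CAST/EiJ reads were lost was not measured.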

Additional observations from a re-analysis of the deposited data

How the results depend on the processing

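No paired analysis was possible because the series holds 1 group. The share of Atp2a1 among the pumps ranged from 98.0% to 98.8% with a replicate left out, that of Casq1 from 98.3% to 98.4%, that of Sln from 70.6% to 91.2% and the neonatal Atp2a1 share from 4.18% to 6.33%; no library ratio exists without a replicate. The mean of Sln, 4.71 TPM, became 8.18 without replicate 1 and 1.25 without replicate 2. Casq1's share moved from 98.3% to 97.8% in the second quantification and to 97.5% for counts not divided by length. The neonatal Atp2a1 share moved from 5.26% to 3.56% in the second quantification. The number of genes at least 1.5-fold apart moved from 1 (13.5% of all genes tested) to 3 with library totals (15.5%), 3 with spike-in totals (18.3%) and 2 in the second quantification (13.6%), where Pln reached 1.54-fold and Sln 5.88-fold. It stayed at 1 with DESeq2 size factors, without the count filter (34.5% of all genes) and at 2-fold (4.66%). The order of the 10 genes held in the second quantification and by posterior mean TPM, both chosen after seeing the data. Mean TPM moved by more than 1 SD for 9 genes in the second quantification, 9 with TPM over nuclear coding genes (2.01 to 2.05 times) and 2 by posterior mean. Depth limits Pln and, in replicate 1, Sln, at 21 to 43 counts. The deposited intervals surround the posterior mean and left out the TPM itself for 6 of the 10 genes in each library.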
